A study of Homo sapiens with 2 samples.

Results

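Transcripts of the nuclear pore and of the receptors that carry cargo through it were measured in A375 cells with and without knockdown of THOC2. The group was formed from gene symbols alone: symbols beginning with NUP, KPNA, KPNB, IPO, XPO or TNPO and a number, together with RANBP2, TPR, RAE1, NDC1, AAAS, SEH1L, SEC13 and RAN. Names with a hyphen and pseudogene names ending in P and a number were left out. This gave 83 probes of 52 genes, out of 58199 probes and 34757 gene symbols on the array. Of the 52 genes, 28 encode nucleoporins or their paralogs, 23 encode importins and exportins, and 1 is RAN.

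A375 is an established human malignant melanoma line, and THOC2 is the largest subunit of THO, a nuclear complex that joins mRNA synthesis to mRNA export. 1 culture received an siRNA against THOC2 and 1 received NC, a control siRNA, and total RNA taken at 48 h was hybridized to 1 single-colour Agilent array per culture. Growth medium and cell line were shared, the labels giving DMEM with glutamine and 15% serum, where the methods give RPMI with less serum. The siRNA used on the array, out of the 4 THOC2 siRNAs in the methods, was not named. The sample title holds only an unexplained number. With 1 array per condition there was no replicate, so no test was possible and each difference given here is a difference between these 2 arrays.

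The labels of both samples contradict themselves, because the source field assigns each sample to the other condition than its title and description do. Titles and descriptions were followed. THOC2 had 2 probes. One gave signals of 136 with NC and 40.9 with its siRNA, and the other 67.3 and 35.1. Their log2 fold changes were -1.42 and -0.63, so THOC2 was lower on the array that titles and descriptions assign to its siRNA. Were the source field right, every sign below would turn.

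The pore is a ring-shaped channel through the nuclear envelope, built from nucleoporins. Scaffold nucleoporins of the Y complex and the inner ring shape it, membrane nucleoporins hold it in the envelope, and nucleoporins rich in phenylalanine-glycine repeats fill the channel and reach out on both faces. Importins bind cargo in the cytoplasm and exportins bind it in the nucleus. The small GTPase Ran, loaded with GTP in the nucleus, releases import cargo and holds export cargo, which gives transport its direction. Bulk mRNA leaves through the same channel with a receptor of its own, after THO and its partners have packaged it.

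The probes that lay farthest from 0 among those well above background on an array, and the other probes of the same genes, are shown first, since the results turn on what each probe reads. Each is a 60-base oligonucleotide placed on hg19 by the deposited annotation. The TPR probe that was measured on both arrays is given whole, and the others by their first 30 bases, 5′ to 3′. No letters are in capitals, because no part is set apart.
TPR, chr1:186324829-186324888, minus strand: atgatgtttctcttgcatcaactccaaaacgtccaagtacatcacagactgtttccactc
TPR, chr1:186280864-186280923, minus strand: gtgacttgcctgtgaagaaatgaaaataaa
RANBP2, chr2:109379969-109380028, plus strand: agatctgcagaatctaagactatagaattt
RANBP2, chr2:109402125-109402184, plus strand: ggaaaggactttgatttctctttgttattt
NDC1, chr1:54233479-54233538, minus strand: tcctttgtcgtggtggttgctttgaaaact
KPNA4, chr3:160218043-160218102, minus strand: gtatttttgcagcattccttgtcatcagaa
KPNA4, chr3:160213016-160213075, minus strand: atatttactccttcaagaagtcaggagtat
IPO7, chr11:9459671-9459730, plus strand: ttgatatggaacagataccccaaggtttaa
IPO7, chr11:9467009-9467068, plus strand: gcttcaaagtgacactgtggaaatctgaaa
IPO7, chr11:9467558-9467618, plus strand: ttgctgctaaaaatgacagctccctctgtg
NUP133, chr1:229635432-229635491, minus strand: cacagaggcttttgtagattcgggaggtga
NUP133, chr1:229577164-229577223, minus strand: gtttcagttagggctaatgggaaatgtcta
NUP133, chr1:229576635-229576694, minus strand: taaccatcttgctccagcagctgaaaaggt
NUP133, chr1:229576046-229576105, minus strand: cctcttttaatcctgtttctctctaagtta

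Most of the transport machinery differed little between the arrays. Signals are the scanner software's background-subtracted intensities. A log2 fold change is the log2 signal with THOC2 siRNA minus that with NC, after each array's 75th percentile was subtracted. That percentile was 6.62 for NC and 6.31 for THOC2 siRNA, so equal relative levels go with a lower signal on the latter. Of the 83 probes, 69 gave signals well above background in both samples, 2 with NC alone, 1 with THOC2 siRNA alone and 11 in neither. The 72 probes measured on at least 1 array covered 48 of the 52 genes, and all 48 had a probe measured on both. The genes without a measured probe were KPNA5 and KPNA7, of the importin alpha family, and NUP210L and NUP62CL, paralogs of pore subunits.

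No member probe was lower by 2-fold or more with THOC2 siRNA, against 3.33% of the 25345 probes measured on at least 1 array. 1 was higher by 2-fold or more (1.39% of 72), against 2.93% of all probes. At 1.5-fold, 3 member probes were lower (4.17%), of TPR, RANBP2 and KPNA4, against 7.69% of all probes, and 3 were higher (4.17%), of NDC1, IPO7 and NUP133, against 6.14%. Among the 69 probes measured on both arrays, none passed 2-fold in either direction, against 0.365% lower and 0.829% higher of 22207 probes. At 1.5-fold, 3 of the 69 were lower (4.35%, against 2.94%) and 2 were higher (2.90%, against 3.84%). With counts this small, none of these shares sets the members apart from the background. In RNA of a whole culture, less of a transcript per cell and fewer cells with it cannot be told apart.

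**Figure D1:**
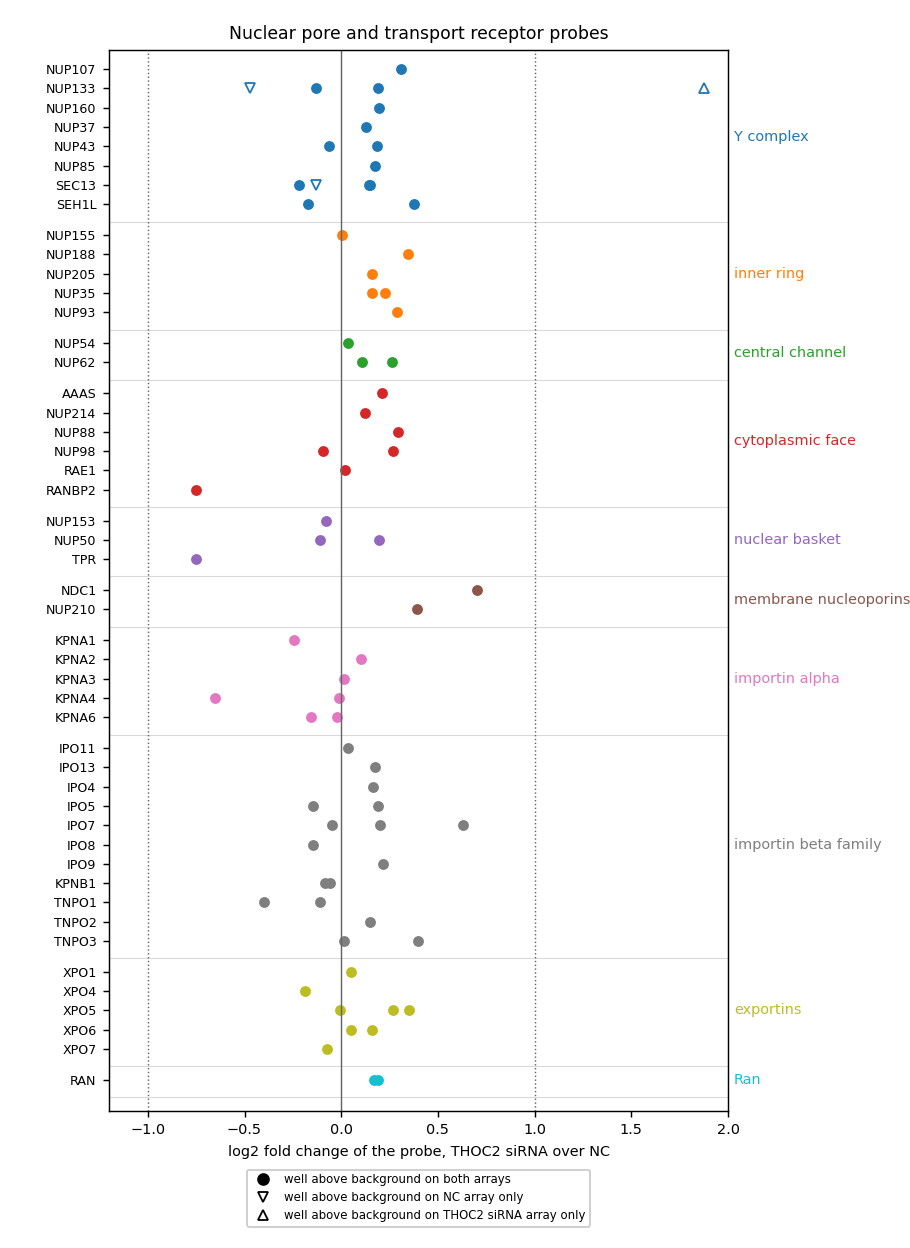
Log2 fold change with THOC2 siRNA over NC (x axis) of each member probe measured on at least 1 array, with genes on the y axis in groups by role. Filled circles are probes well above background on both arrays, open triangles probes well above background on 1 array only, and dotted lines mark 2-fold. The 69 filled circles lie between -0.75 and 0.70, and the only symbol past 2-fold is a dim NUP133 probe at 1.88.

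Of all 17514 measured genes with a symbol, 9350 lay above 0, with a median log2 fold change of 0.02. Of the 48 member genes, 36 lay above 0 and 12 below, with a median of 0.10. Over genes measured by probes on both arrays the member median was 0.10, beside 0.04 for all. With lowess centring, which removes the trend of fold change with signal, it was 0.07, beside 0.00 (0.00497). Then 31 member genes lay above 0, beside 8889 of all 17514. On probes measured on both arrays, 39 of the 48 member genes differed by less than 1.2-fold (81.2%), beside 69.5% of all 15647 genes. The SD of the log2 fold change over member probes was 0.26, beside 0.32 over all probes measured on both arrays. Brighter probes vary less, and where log2 signals passed 7 on both arrays the SD was 0.22 for 54 member probes and 0.24 for all 12373. Of these bright probes, 38 of the 54 members lay above 0, beside 7613 of all 12373. Set against probes of like signal, 3 of 69 member probes lay under the 5th percentile (TPR, RANBP2 and KPNA4) and 2 above the 95th (NDC1 and IPO7), where 5% of all probes lie on each side.

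**Figure D2:**
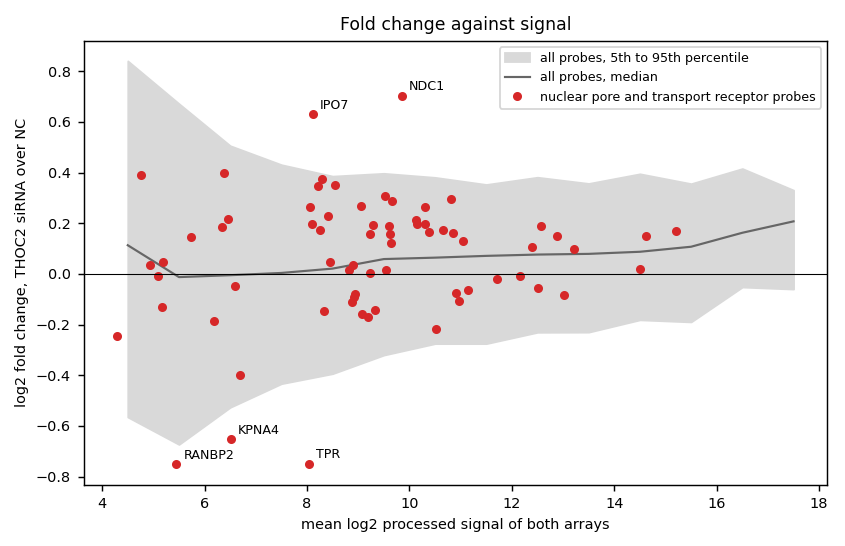
Log2 fold change (y axis) against the mean log2 processed signal of both arrays (x axis) for the 69 member probes measured on both arrays, as red points. The grey band holds the 5th to 95th percentile and the grey line the median of all probes in bins of signal, and the points of TPR, RANBP2, KPNA4, NDC1 and IPO7 fall outside the band.

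The only error that could be measured is that within the arrays, from probes printed on several spots. Their log2 fold change varied with a median SD of 0.05 at a mean log2 signal over 8 (244 probes). The SD was 0.10 from 6 to 8 (36 probes), 0.17 from 4 to 6 (5 probes) and 0.42 below 4 (15 probes). Each member probe was printed on 1 spot, and these SDs do not hold the differences between cultures.

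The scaffold of the pore lay slightly above 0, and 9350 of all 17514 measured genes were also above 0. The 8 genes grouped here as the Y complex, the outer scaffold, were measured with a median of 0.15, and 7 were above 0. With normexp this median was 0.07. On probes measured on both arrays it was 0.11 and all 8 lay above 0, with NUP133 at 0.03 in place of 0.37. The NUP98 gene, placed with the cytoplasmic face, and AHCTF1, which the symbol rule does not take in, also encode proteins of this complex. AHCTF1 lay at -0.52, below all 8. NUP107, a core subunit of that complex, gave signals of 731 with NC and 730 with THOC2 siRNA, a log2 fold change of 0.31. NUP160, NUP37, NUP43, NUP85, SEC13 and SEH1L had gene values from -0.01 to 0.20. Probes of SEH1L (-0.17 and 0.37), SEC13 (-0.22 to 0.15 over 3 probes on both arrays) and NUP43 (-0.07 and 0.19) differed in sign. The higher NUP43 probe lay in a block of the array with a median of 0.19 and 14.4% of probes higher by 2-fold. SEC13 also serves in the coat of vesicles that leave the endoplasmic reticulum. NUP133, which carries a membrane-binding motif, also had probes of both signs and is taken up below for its dim ones.

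The 5 genes of the inner ring, which lines the channel and ties the scaffold to the membrane, had a median of 0.19, and all 5 were above 0. The median was 0.07 with normexp, and 4 of the 5 lay above 0 with lowess centring. NUP188 gave 293 and 300.3 (0.35). NUP93, on which the ring's other subunits assemble, gave 810 and 797 (0.29). NUP155, NUP205 and NUP35 ranged from 0.00 (0.00381) to 0.19. For the repeat nucleoporins of the central channel, NUP62 gave 5796 and 5042 at one probe (0.11) and 1288 and 1247 at the other (0.26), and NUP54 was at 0.03. The median of these 2 genes was 0.11, and it turned to -0.01 with normexp. NUP58, a channel gene outside the symbol rule and on the array as NUPL1, had probes at -0.28 and 0.20, with a mean of -0.04. Normexp is a background correction that adds an offset of 50, which draws dim signals together, before the 75th percentile is subtracted. NUP62 and NUP54 were not dim, and bright probes also moved down with it. The brighter RAN probe, at 39580 with NC, went from 0.17 to 0.06. The cause of this turn was not tested.

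The membrane nucleoporins held the highest member. NDC1, a transmembrane protein needed for pore assembly, gave 807 with NC and 1061 with THOC2 siRNA. Its log2 fold change was 0.70, and 0.598% of the bright probes lay higher still. NDC1 held 1 of the 7 member probes, out of 69, whose unscaled signal was also higher with THOC2 siRNA (10.1%, beside 14.4% of all probes). It stayed between 0.56 and 0.70 under the 11 alternatives. NUP210, a transmembrane glycoprotein of the pore, gave 26.4 and 27.9 (0.39), but its signals lay close to the lowest ones counted as well above background (14.7 for NC and 15.9 for THOC2 siRNA).

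On the cytoplasmic face, RANBP2 stood apart from the rest. RANBP2 forms the filaments on that face, binds Ran and acts as a SUMO ligase. Its 3′ probe gave 63.2 with NC and 30.3 with THOC2 siRNA, a log2 fold change of -0.75, which is 1.68-fold lower. Its 5′ probe was not above background on either array (5.71 and 4.29). RANBP2 has near-identical paralogs in the genome, and whether their transcripts reach its probes was not tested. With normexp its log2 fold change was -0.31. The other 5 genes of that face lay from 0.02 to 0.30. NUP88 gave 1797 and 1778 (0.30), with 0.11 after centring within blocks of spots: its block of the array had a median of 0.19 and held 19.9% of probes higher by 2-fold. AAAS, or aladin, which NDC1 anchors at the pore, gave 1160 and 1085 (0.21). NUP98, a mobile repeat nucleoporin that binds the export factor RAE1, gave 540 and 524 at one probe (0.27) and 558 and 423 at the other (-0.09), a mean of 0.09 that turned to -0.01 with normexp. NUP214 and RAE1 were at 0.12 and 0.02.

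In the nuclear basket, TPR was lower while NUP153 and the mean of the NUP50 probes lay near 0. TPR is the coiled-coil protein that forms the basket's filaments, where mRNA is inspected before export. Its 5′ probe gave 381 with NC and 183 with THOC2 siRNA. The log2 fold change was -0.75, a 1.68-fold lower level, and 0.396% of bright probes lay lower still. It stayed between -0.81 and -0.66 under the other scalings and normexp. The block of the array around this spot held 8.37% of its probes lower by 2-fold and 7.39% higher, and had a median of 0.06. TPR's other probe, near its 3′ end, was not above background on either array (6.94 and 5.36), so 1 probe and 1 spot carry the TPR value. NUP153, the repeat nucleoporin of the basket, gave 564 and 430 (-0.08), with -0.185 under normexp. NUP50, a cofactor of importin alpha, averaged 0.04 over probes of opposite sign (0.195 and -0.11).

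**Figure D3:**
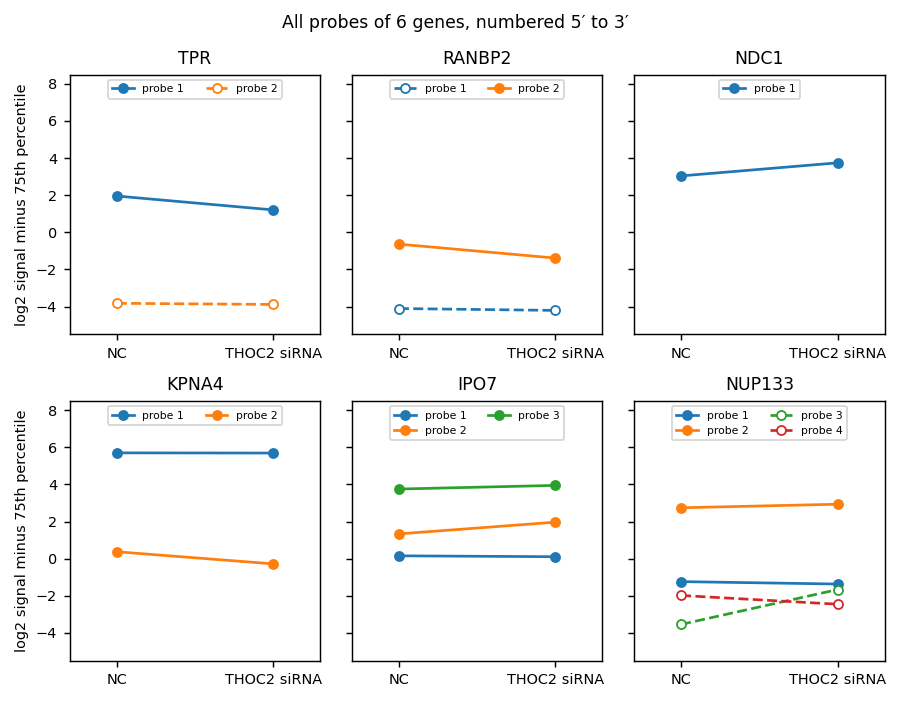
Log2 processed signal minus the array's 75th percentile (y axis) on the NC and THOC2 siRNA arrays (x axis) for each probe of TPR, RANBP2, NDC1, KPNA4, IPO7 and NUP133, numbered 5′ to 3′. Filled points joined by solid lines are probes well above background on both arrays, and open points joined by dashed lines the other probes. The bright KPNA4 probe is level at -0.01, while the dimmer one falls by 0.65.

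The importin alpha family, the adaptors that bind the classical nuclear localization signal, had a median of -0.09 over 5 genes, of which 3 lay below 0. This median was 0.02 without a detection filter and -0.01 with the brightest probe of each gene. KPNA4 gave 5091 and 4080 at its 5′ probe (-0.01) and 127 and 65.2 at its 3′ probe (-0.65). The much dimmer probe was the lower one, and the mean of -0.33 describes neither. KPNA1 was dim at 23.8 and 16.2, and its -0.25 turned to 0.07 with normexp. KPNA6 averaged -0.09 over 2 probes. KPNA2, the family member most linked to dividing cells, was bright at 10200 and 8824, and its 0.10 turned to -0.01 with normexp. KPNA3 was at 0.02.

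KPNB1, or importin beta, which takes the adaptor and its cargo through the pore, gave 9521 and 7256 at one probe (-0.08) and 6603 and 5121 at the other (-0.06). These bright probes agreed within 0.03, less than the technical SD of 0.05. Their mean of -0.07 depended on the processing, with -0.15 after lowess centring and -0.14 with normexp. The 11 genes of the importin beta family had a median of 0.15, with 3 below 0 and 8 above, and a median of 0.03 with normexp. TNPO1, or transportin, which imports hnRNP proteins, gave 2328 and 1743 (-0.11) at one probe and 132 and 80.9 (-0.40) at the other, again with the dimmer probe lower. IPO8 gave 750.2 and 548 (-0.14), with -0.235 under normexp. TNPO3, the importer of SR splicing factors, gave 81.0 and 86.1 (0.40) at one probe and 828 and 674 (0.01) at the other. IPO9, a carrier of histones, gave 90.4 and 84.6 (0.22). IPO7, which imports ribosomal proteins, gave from 5′ to 3′ 109 and 85.1 (-0.05), 247 and 309 (0.63), and 1319 and 1220 (0.20). The last 2 IPO7 probes lie within 1 kilobase on the plus strand, yet only the middle one passed 1.5-fold. IPO4, IPO5, IPO11, IPO13 and TNPO2 ranged from 0.02 to 0.18.

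The 5 exportins taken in by the symbol rule had a median of 0.05, which turned to -0.02 with normexp. The rule does not take in the exportin genes XPOT and CSE1L, at -0.13 and -0.04, or RANBP17, at -0.17. XPO1, the exportin for leucine-rich export signals, gave 384 and 320.5, and its 0.05 turned to -0.02 with normexp. XPO4 gave 86.2 and 61.2 (-0.19), and XPO7 gave 2211 and 1694 (-0.07), with -0.215 for XPO7 under normexp. XPO5, the carrier of precursor miRNAs, and XPO6, the carrier of actin, were at 0.20 and 0.10. RAN itself was the brightest member, with 39580 and 35870 at one probe (0.17) and 6368 and 5852 at the other (0.19). The RAN probes differed by 0.02, and the gene's value of 0.18 was between 0.08 and 0.18 under the 11 alternatives.

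**Figure D4:**
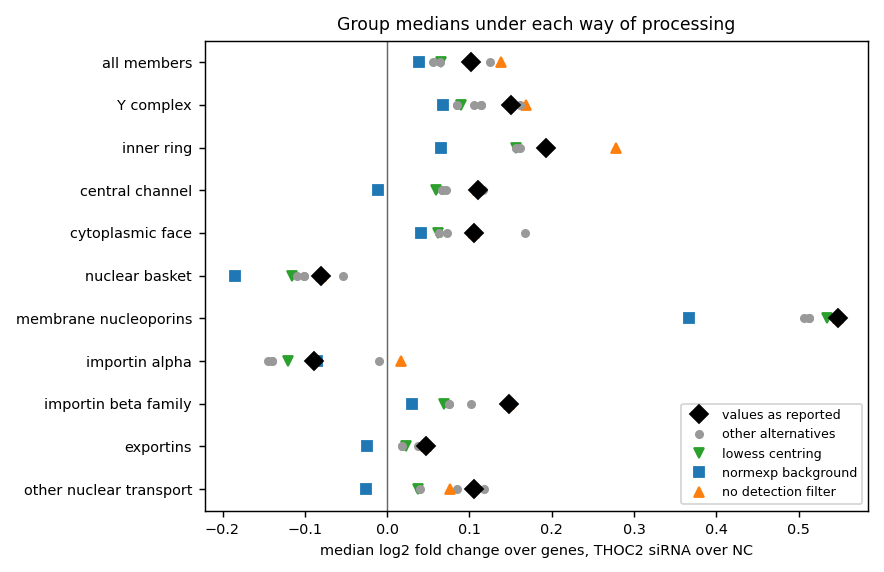
Median log2 fold change over genes (x axis) for all members, for each role group and for the other nuclear transport genes (y axis), under each way of processing. Diamonds are the values as reported, squares normexp, inverted triangles lowess centring, triangles no detection filter and grey points the remaining alternatives. The median of all members stays above 0, between 0.04 and 0.14, while the central channel, importin alpha, exportin and other transport medians cross 0.

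NUP133 held the only probe past 2-fold and is described because of it. Its dim probes at chr1:229576046 and chr1:229576635 carry no RefSeq transcript in the annotation and lie 3′ of the others. The latter gave 8.43 with NC, which is not well above background, and 24.99 with THOC2 siRNA, and counts as at least 2.11-fold higher. The former gave 24.8 and 14.4 and counts as at least 1.26-fold lower. The bright probe of NUP133 gave 656 and 604 (0.19) and the 5′ probe 41.6 and 30.7 (-0.13). The mean over all 4 probes was 0.37, and that over the 2 probes measured on both arrays was 0.03. The technical SD for probes as dim as the highest one was 0.42, the largest of the signal classes.

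Probes of 1 gene read the same RNA sample and are not replicates of the condition. Of 18 member genes with at least 2 probes measured on both arrays, 9 had probes of the same sign (50%), beside 58.5% of all 3718 such genes. The median range between probes of a gene was 0.31 on the log2 scale for members and 0.20 for all. The 3′-most probe was lower than the 5′-most in 9 of these 18 members (median difference -0.01) and in 2055 of 3688 genes overall (-0.04).

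Other genes of nuclear transport were described from a separate list of 28, of which 27 had probes here. Their median was 0.11, and it turned to -0.03 with normexp. Of these genes, 10 lay below 0 and 17 above, beside 9350 of all 17514 measured genes above 0. Among 39 probes measured, none passed 2-fold, against 3.33% lower and 2.93% higher of all probes. At 1.5-fold, 1 was lower (2.56%, against 7.69%) and 1 was higher (2.56%, against 6.14%). The lowest gene was AHCTF1, or ELYS, which seeds pores on chromatin after mitosis, with 126 and 65.9 at the lowest probe (-0.63). The value of AHCTF1 over its probes was -0.52, and -0.13 with normexp. RANBP17 and XPOT, the tRNA exportin, followed at -0.17 and -0.13, and RANBP17 was at -0.00184 with normexp. The highest was GLE1, which helps release mRNA on the cytoplasmic side, with 34.7 and 54.2 (0.95). These dim signals gave 0.53 with normexp and 0.815 with centring by block. AKIRIN2, a factor in nuclear import of proteasomes, and RANBP6 followed at 0.44 and 0.31, RANBP6 from dim signals (24.35 and 24.34).

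Promoters of the members were read from RefSeq (GRCh38.p14) as 250 bases before and 50 after the start, with 1 window per gene. A window was matched for 46 of 52 members, and not for KPNA4, KPNA5, KPNA7, KPNB1, NUP43 and XPO7. Member windows had a median GC content of 63.3% and 26 CpG dinucleotides, beside 58.3% and 14 in 27305 windows. The ETS core CCGGAAG was present on either strand in 13 of 46 (28.3%, beside 2913 of all 27305). CCAAT, the NF-Y box, was in 45.7% (35.7% of all), GGGCGG, the SP1 box, in 54.3% (44.6%) and TATAAA in 4.35% (12%). Member genes with the ETS core had a median log2 fold change of 0.13 (13 genes), and those without it 0.09 (31 genes). The 27305 windows were not limited to genes measured on these arrays, so members were not compared with expressed genes alone. A match of letters is not a bound site, and these counts describe the windows only.

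The promoters of the lowest bright member and of the highest are given for comparison, as the 250 bases before the start, 5′ to 3′ on the gene's strand, with the searched motifs in capitals.
TPR, chr1:186375254-186375503, minus strand: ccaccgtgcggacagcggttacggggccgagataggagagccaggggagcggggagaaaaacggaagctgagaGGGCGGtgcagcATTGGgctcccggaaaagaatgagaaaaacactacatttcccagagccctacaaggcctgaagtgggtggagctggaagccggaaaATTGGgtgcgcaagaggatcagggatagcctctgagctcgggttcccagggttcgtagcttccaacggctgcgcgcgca
NDC1, chr1:53838297-53838546, minus strand: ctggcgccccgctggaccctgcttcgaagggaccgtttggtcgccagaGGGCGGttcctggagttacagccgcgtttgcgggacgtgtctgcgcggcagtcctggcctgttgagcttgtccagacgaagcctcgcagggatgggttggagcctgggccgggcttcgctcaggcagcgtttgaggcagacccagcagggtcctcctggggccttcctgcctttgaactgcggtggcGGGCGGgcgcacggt
TPR held CCAAT on the reverse strand at 2 places and GGGCGG at 1, and NDC1 held GGGCGG at 2. These motifs were frequent in all windows, as given above.

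The labelled cell type was checked against melanocytic markers. SOX10, a neural crest factor, was bright on both arrays (6196 and 5196), and MITF, S100B and DCT were measured on both. Their log2 fold changes ranged widely, with 0.06 for SOX10, -0.04 and -0.02 for the MITF probes, -0.66 for S100B and 0.75 for DCT, which was dim (18.0 and 24.5). PMEL and TYR, pigment genes, were not above background on either array, and MLANA only on the THOC2 siRNA array, where 1 of its probes counts as at least 1.58-fold higher. Of 6 markers of keratinocytes, endothelium, leukocytes and fibroblasts, KRT14 (83.9 and 104), PECAM1 (16.3 and 17.6) and PTPRC (27.4 and 28.9) had 1 probe each measured on both arrays, with log2 fold changes of 0.62, 0.43 and 0.39. A further KRT14 probe, measured with THOC2 siRNA only (11.9 and 26.9), counts as at least 2.28-fold higher. KRT5, COL1A1 and LUM had no probe above background on either array. The part of these markers in the values above was not tested.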

How the data were processed

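RNA of 1 culture with THOC2 siRNA and 1 with NC was measured on 1 Agilent array each, both on 1 slide. The authors ran Agilent Feature Extraction 10.7.1.1, and the deposited scanner files hold each spot's intensity after background subtraction and detrending, with marks for outlier spots and for signals well above background. The authors also deposited log2 values normalized between arrays, whose sorted values differ by at most 0.042, and a table of fold changes from their own comparison, which was not used. Their Student's test needs replicates and was not run.

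Control and outlier spots were left out (147 outlier spots for NC and 168 for THOC2 siRNA, none saturated). Log2 processed signals of a probe were averaged, and the array's 75th percentile was subtracted. A probe was compared if either array measured it well above background (24616 did with NC, 22936 with THOC2 siRNA), and such probes were averaged to give the gene's value. Genes were ranked for naming on probes measured on both arrays. A probe measured on 1 array has a bound: its brighter signal is set against its dim signal, or against the floor of that array's well-measured signals where this was higher. The number of arrays limits the precision. Alternatives were quantile normalization, median scaling, lowess centring (span 0.3), centring in 128 blocks of spots, normexp (offset 50), both arrays required, dim signals raised to that floor, no detection filter, the authors' values, the median or brightest probe of a gene, other folds and other members.

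The genes named are THOC2, members past 1.5-fold, the 10 lowest and 10 highest members, RAN, KPNB1, XPO1, RANBP2, TPR, NUP98, KPNA2, NUP62 and NUP153, and the 3 lowest and 3 highest of the other transport genes. The other members are listed by name within their role group, with a value or range. NUP133, and the probe values of SEH1L, SEC13 and NUP43, were added after they were seen. Members and lists were chosen with earlier results of these data known. All 52 member symbols matched RefSeq. Protein sequences, exons and UTRs were not analysed here. Python 3.11.15, numpy 2.4.6, pandas 2.3.3, statsmodels 0.14.6, matplotlib 3.10.9, R 4.3.3 and limma 3.58.1 were used, and the comparison was tested on simulated data.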

Additional observations from a re-analysis of the deposited data

How the results depend on the processing

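No paired analysis was possible because each condition had 1 array. The median of the member genes stayed above 0 under 12 alternatives (0.04 to 0.14), and was 0.0385 with normexp. The count of member probes lower by 2-fold became 3 at 1.5-fold. The count of higher probes became 3 at 1.5-fold, 0 with normexp and 0 where both arrays had to measure a probe. Normexp gave 0.0675 for the Y complex, 0.0653 for the inner ring and -0.0112 for the central channel. It gave 0.0414 for the cytoplasmic face, -0.185 for the nuclear basket and 0.367 for the membrane nucleoporins. In the main processing these last medians were 0.105, -0.0798 and 0.548. Normexp also gave 0.0305 for the importin beta family, -0.0246 for the exportins and -0.0258 for the other nuclear transport genes. For the Y complex, the importin beta family and the other transport genes in turn, quantile normalization gave 0.0852, 0.0749 and 0.0384, lowess centring 0.0897, 0.0689 and 0.0375, and the authors' values 0.085, 0.0749 and 0.0403. Without a detection filter the median of all genes was 0.24, the inner ring was at 0.278 and importin alpha at 0.0164. Importin alpha was at -0.145 with centring by block and -0.00985 with the brightest probe of a gene, under which the cytoplasmic face was at 0.167. TPR was at -0.41 and RANBP2 at -0.43 without a detection filter, which adds their probes near background. The causes of the other shifts were not tested. Depth of signal limits RANBP2, KPNA1, NUP210 and the dim NUP133 probes, and GLE1, RANBP17 and RANBP6 among the other transport genes.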

Other observations

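Names that the symbol rule left out were measured as well. IPO5P1, a pseudogene of IPO5, had probes at -0.12 and -0.22, while the 2 probes of IPO5 were at 0.19 and -0.15. Sharing of transcripts between the gene and its copy was not tested. NUP50-AS1, the antisense neighbour of NUP50, had 3 probes at -0.06, 0.34 and -0.15, and IPO9-AS1 had 1 at 0.18. NUP210P1 was not above background on either array.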
